A study of Mus musculus with 8 samples.

Results

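Cytoplasmic ribosomal protein genes were followed through 4 cell populations of the mouse hair follicle by the open chromatin at their gene ends. The genes were chosen by symbol: protein-coding genes whose name starts with Rpl or Rps and a number, with Rplp0, Rplp1, Rplp2 and Rpsa and without the Rps6k kinases. That gave 91 of 21631 protein-coding genes of the autosomes and X. Of the 91 genes, 77 encode the usual proteins of the ribosome (43 of the large subunit, 31 of the small subunit and 3 of the stalk), 13 are other copies such as retrogenes and tissue-specific paralogues, and 1 is Rps19bp1, which encodes a protein that binds Rps19. A peak was given to a gene when its midpoint lay within 1 kb of either end of the gene span, and the highest such peak stood for the gene.

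Ribosomes consist of a small subunit, which reads the messenger RNA, and a large subunit, which joins the amino acids. Their proteins are needed in every cell that grows, so their genes are often taken as housekeeping genes with open promoters everywhere. Many of their messages begin with a C and a run of pyrimidines (the 5′ terminal oligopyrimidine motif, TOP), through which translation is tied to mTOR and Larp1. In the hair follicle, quiescent stem cells rest in the bulge and hair germ, and their progeny in the growing bulb are among the fastest dividing cells of the adult mouse.

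Accessible DNA, which a transposase can cut and tag (ATAC-seq), had been mapped in cells sorted from back skin of mice of mixed sex, with 2 samples per population. Bulge stem cells (GFP and CD34 positive, with integrins α6 and β1) and hair germ cells (the same gate without CD34) came from resting follicles at postnatal day 55. Basal transient amplifying cells (TACs; no GFP or CD34, high integrin β1, P-cadherin, no SCA1) and suprabasal TACs (low GFP, no integrin α6 or CD34) came from growing follicles at postnatal day 30. The first 3 populations were from Lgr5-eGFP-ires-CreER mice, in which the Lgr5 locus drives GFP, and suprabasal TACs were from K14-H2BGFP mice, in which a keratin 14 promoter drives a histone GFP; genotype, age and stage therefore cannot be told apart from the population in comparisons across them.

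The authors deposited 1 peak list per population, called on both samples pooled, so no replicate spread exists and no p-value is given. The lists rest on 24065469 fragments for the bulge, 11053351 for hair germ cells, 30824845 for basal and 47852893 for suprabasal TACs, and hold 56548 to 75652 peaks. Values below are the pileup, the number of fragments over a peak's summit, divided by the fragments of the list and multiplied by 1000000 (FPM). Intervals are exact 95% intervals, and those of ratios cover counting error only. In these bulk lists, fewer open cells and less openness per cell cannot be told apart. The sort gene Cd34 had pileups of 7.19, 3.53, 2.37 and 0.564 FPM from bulge to suprabasal TAC, and the keratinocyte gene Krt5 had 12.3, 9.77, 8.66 and 2.30. Not all markers of these cells moved so: Lhx2, Sox9 and Lgr5 had log2 ratios of hair germ over bulge of 0.39, 0.19 and 0.24. Nfatc1 and Krt14 had no gene-end peak in the bulge, with 7.42 and 8.41 FPM in the hair germ, and Lef1 and Trp63 had none in any list. Of the markers of other cell types, Ptprc, Cd3e, Pecam1, Emcn, Tyr, Col1a1 and Pdgfra had none in any list either. Peaks of marker genes farther than 1 kb from their span ends were not examined. The immune gene Cd68 (4.94, 4.34, 1.72 and 1.48 FPM), the dermal gene Vim (1.95, 2.71, 1.95 and 1.27 FPM) and the melanocyte genes Pmel and Dct had peaks in all 4, and the endothelial gene Tek had peaks in all but the suprabasal list.

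A start site was listed for 70 of the 91 genes in RefSeq promoter sequences of GRCm38.p6, the build of the files (mm10). The 8 stretches printed here run from 70 bases before the start base to 20 bases from it, on the coding strand. The first 7 begin their transcript with C and 4 pyrimidines and stand for the high (Rpl15), the widest-ranging (Rps6, Rpl28), a narrow-ranging (Rps10), the stalk (Rplp2) and 2 more subunit genes (Rpl14, Rps27). Rplp0, a stalk gene whose listed start has no such run, is set beside them. Capitals mark the longest pyrimidine run around the start where it has 8 or more bases, and any CCGGAA, AAGATGGC or CTCGCGAG on either strand; in Rps27 the run goes straight into a CCGGAA read on the other strand, and the TGGC at its 5′ end belongs to an AAGATGGC. The minus-strand stretches are Rpl15 at chr14:18270967-18271056, Rps6 at chr4:86857348-86857437, Rps10 at chr17:27635225-27635314 and Rps27 at chr3:90213629-90213718. The plus-strand stretches are Rpl28 at chr7:4792895-4792984, Rplp2 at chr7:141447581-141447670, Rpl14 at chr9:120571447-120571536 and Rplp0 at chr5:115559397-115559486.
Rpl15: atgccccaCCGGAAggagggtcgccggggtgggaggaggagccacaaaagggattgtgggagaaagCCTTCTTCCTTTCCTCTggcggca
Rps6: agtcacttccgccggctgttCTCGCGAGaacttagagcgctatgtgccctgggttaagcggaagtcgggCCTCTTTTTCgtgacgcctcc
Rps10: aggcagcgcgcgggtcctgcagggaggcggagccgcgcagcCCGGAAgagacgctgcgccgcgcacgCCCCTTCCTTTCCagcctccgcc
Rpl28: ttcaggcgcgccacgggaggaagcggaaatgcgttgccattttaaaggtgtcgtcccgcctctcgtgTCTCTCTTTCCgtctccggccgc
Rplp2: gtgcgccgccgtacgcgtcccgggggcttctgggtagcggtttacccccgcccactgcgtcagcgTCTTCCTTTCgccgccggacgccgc
Rpl14: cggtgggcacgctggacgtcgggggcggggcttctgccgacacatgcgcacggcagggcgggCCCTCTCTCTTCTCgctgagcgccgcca
Rps27: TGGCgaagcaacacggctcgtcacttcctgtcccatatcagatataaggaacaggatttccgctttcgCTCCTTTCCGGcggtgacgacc
Rplp0: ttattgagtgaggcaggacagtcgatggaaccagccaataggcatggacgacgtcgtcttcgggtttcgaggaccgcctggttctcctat

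A run of pyrimidines near the start was common in the promoters of ribosomal protein genes. The run need not cover the start base, and in Rpl10, Rpl37 and Rps23 it lay wholly after it. A run of 8 or more pyrimidines between 20 bases before and 50 bases after the start stood in 50 of 70 member promoters (71.4%), against 24.3% of the promoters of other genes, 21.8% of those of other genes with a peak in all 4 lists and 24.6% of those of mitochondrial ribosomal proteins. The stricter form, C at the start base followed by 4 pyrimidines, stood in 14 of 70 members (20%), in 2.13% of other genes and in 0 of 69 mitochondrial ribosomal protein genes. The 14 were Rpl14, Rpl15, Rpl28, Rpl32l, Rpl35, Rpl38, Rplp2, Rps6, Rps10, Rps15a, Rps18, Rps21, Rps27 and Rps27rt.

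Of the other letters searched on both strands of the 300 bases, some were shared more widely. CCGGAA, the core of sites for ETS factors such as GABP, stood in 47.1% of member promoters, 56.5% of those of mitochondrial ribosomal proteins and 19.2% of those of other genes (29.2% of other genes with a peak in all 4 lists). GGGCGG, an SP and KLF factor site, stood in 57.1% of members and in 46.8% of other genes, but in 67.6% of those with a peak in all 4 lists. CTCGCGAG, a palindrome of CpG-rich promoters, stood in 6 of 70 members (8.57%), namely Rpl12, Rpl26, Rpl27a, Rps6, Rps19 and Rps28, and in 1.28% of other genes. It stood in 2.90% of mitochondrial ribosomal proteins and 2.02% of other genes with a peak in all 4 lists. TGACGTCA, the CRE site, stood in 7.14% of members, 2.90% of mitochondrial ribosomal proteins and 2.35% of other genes (3.56% of those with a peak in all 4 lists). AAGATGGC, a YY1 site, stood in 8.57% of members, 17.4% of mitochondrial ribosomal proteins and 3.22% of other genes. CACGTG, the E-box that Myc can bind, stood in 7.14% of members and 8.02% of other genes. ATTGG, the CCAAT box on its other strand, stood in 31.4% of members and 39.5% of other genes. These matches are letters in a window and not measured binding.

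**Figure D1:**
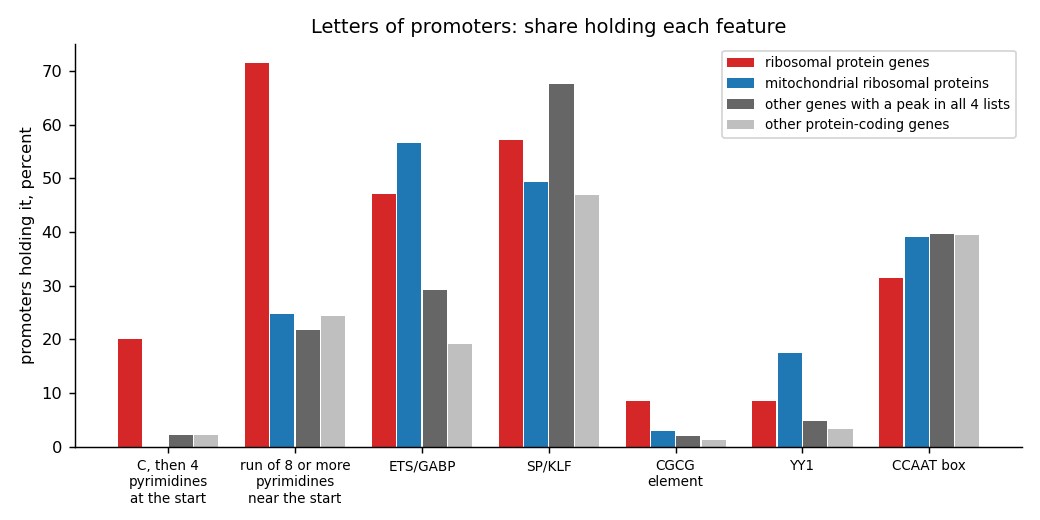
Share of promoters (percent, vertical axis) that hold each sequence feature, for 70 ribosomal protein genes, 69 mitochondrial ribosomal protein genes, 9010 other genes with a peak in all 4 lists and 17204 other protein-coding genes. The pyrimidine run near the start stood in 71.4% of the ribosomal protein genes and in 21.8% to 24.6% of the other sets, while CCGGAA stood in 47.1% of them and in 56.5% of mitochondrial ribosomal protein genes.

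Nearly every ribosomal protein gene had an open gene end in every population. Gene-end peaks were found at 81 of 91 members in the bulge list (89.0%; 57.1% of all protein-coding genes), at 80 in the list of hair germ cells (87.9%; 56.6%), at 80 in that of basal TACs (87.9%; 59.3%) and at 79 in that of suprabasal TACs (86.8%; 59.3%). The same 79 genes had one in all 4 lists (86.8%, interval 78.1% to 93.0%; 52.2% of all genes). This interval treats the 91 genes as independent draws, although they were all chosen by symbol and share the same libraries. Large subunit genes with a peak in all 4 lists numbered 40 of 43, small subunit genes 30 of 31 and stalk genes 3 of 3.

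The 4 usual ribosomal protein genes outside that count (Rpl17, Rpl22, Rpl38 and Rps2) were open as well, at peaks whose midpoints lay over 1 kb from both span ends in at least 1 list. For Rps2 and Rpl38 these were the peaks at the listed start site, which lies inside the annotated span. Rps2, of the small subunit, had a peak in every list with pileups of 6.69, 7.96, 5.61 and 4.10 FPM from bulge to suprabasal TAC, 1694 to 1881 bp from the nearest span end. Rpl22, an RNA-binding large subunit protein, had peaks of 8.10, 10.4, 6.16 and 3.80 FPM. Rpl38, known in the mouse for its role in translating Hox messages, had 2.78, 2.53, 2.21 and 2.28 FPM, nearly level over the 4 lists. With any peak that touched the span or the 1 kb beside it, all 77 usual genes were open in all 4 lists, as were 85 of all 91 members and 65.4% of all protein-coding genes; this wider rule was chosen after the data were seen.

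The copies differed among themselves. Rpl10l and Rpl39l, known as testis copies of Rpl10 and Rpl39, had no peak in any list, and neither had the retrocopy Rps27rt or Rpl31-ps12. Rpl22l1, the paralogue of Rpl22, was open like a usual member, at 18.9, 17.1, 8.56 and 5.83 FPM. Rps27l, a paralogue of Rps27, had a peak of 10.8, 8.32, 5.03 and 4.01 FPM at its listed start, over 1 kb inside its span. Rpl32l had a peak of 2.35 FPM in the hair germ and 5.24 FPM in the bulge, and none in either TAC list. This peak did not lie within 1 kb of the listed start of Rpl32l. Rpl3l, a paralogue of Rpl3 known from muscle, had peaks of 9.31, 10.0, 5.64 and 3.26 FPM, but their summits lay 8637 to 8745 bp from its listed start, beside Msrb1, and no peak lay within 1 kb of that start.

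Peaks sat on the start sites. The summit of the highest peak lay a median of 31, 30, 41 and 32 bp upstream of the listed start from bulge to suprabasal TAC. It was within 250 bp of the start in 78.7% to 81.7% of the 59 to 61 members with a listed start and a gene-end peak. The share of other genes was 65.0% to 67.8%. In 54 of 70 members with a listed start, the peak at the start was the highest gene-end peak in all 4 lists. For Rpl19, of the large subunit, it was not: its gene-end peaks had pileups of 2.37, 2.08, 1.07 and 0.815 FPM and lay beside Cacnb1, whereas the peak at its start had 5.61, 4.07, 2.76 and 2.19 FPM. The highest gene-end peak of Rpl19 was not in 1 region shared by all 4 lists. The highest peak of Rpl4 lay at its other end, beside Snapc5 and Zwilch; at its start Rpl4 had 2.99, 2.99, 2.24 and 1.61 FPM.

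**Figure D2:**
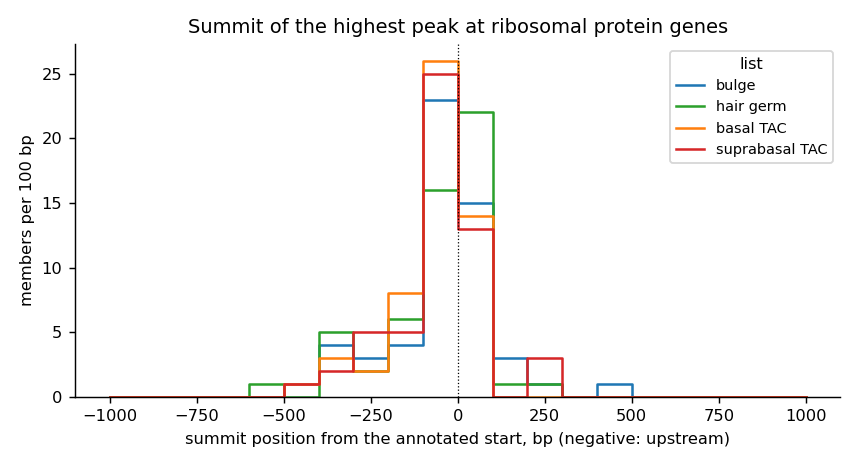
Position of the summit of each member's highest gene-end peak from its listed start (horizontal axis, bp; negative is upstream), counted per 100 bp (vertical axis), with a line per list. Most summits lie within 100 bp of the start in all 4 lists; the few members with summits beyond 1000 bp, such as Rpl3l, Rpl4 and Rpl19, are not drawn.

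Levels differed widely among the 79 members with a gene-end peak in every list. Rpl37, Rpl15, Rpl30 and Rps29 were among the members with the highest mean pileup. Rpl15 reached 26.6, 22.1, 13.1 and 8.57 FPM from bulge to suprabasal TAC, and Rpl37 reached 26.2, 23.6, 12.5 and 9.76. The lowest 5 by gene-end peak were Rpl19 (the peaks beside Cacnb1), Rpl34-ps1, Rps10, Rps16 and Rps4x. Rps4x, on the X chromosome, had 3.70, 3.35, 1.82 and 1.23 FPM. Across members, Spearman's rho of the pileup was 0.959 between hair germ and bulge, 0.921 between suprabasal and basal TAC and 0.788 between suprabasal TAC and bulge, over 80, 79 and 79 genes that share the same libraries; other genes had 0.968, 0.894 and 0.827. It was lowest between suprabasal TAC and hair germ, at 0.767 over 79 members and 0.837 over other genes.

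Pileup in FPM was not steady over the 4 lists at these genes. The median of the 79 members was 8.27 FPM for bulge cells, 8.41 for hair germ cells, 5.29 for basal TACs and 3.34 for suprabasal TACs. The median of 11204 other genes with a peak in all 4 lists moved with it, at 7.23, 7.06, 4.48 and 3.07 FPM. Members stood 1.14, 1.19, 1.18 and 1.09 times as high as the other genes in the 4 lists. The median fold enrichment over local background at member peaks was 13.4, 12.3, 11.3 and 8.57, against 11.1, 10.4, 9.79 and 7.67 at the gene-end peaks of other genes and 7.48, 7.14, 6.71 and 4.79 over all peaks of the lists; the part of these list-wide differences in the pileup was not tested.

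**Figure D3:**
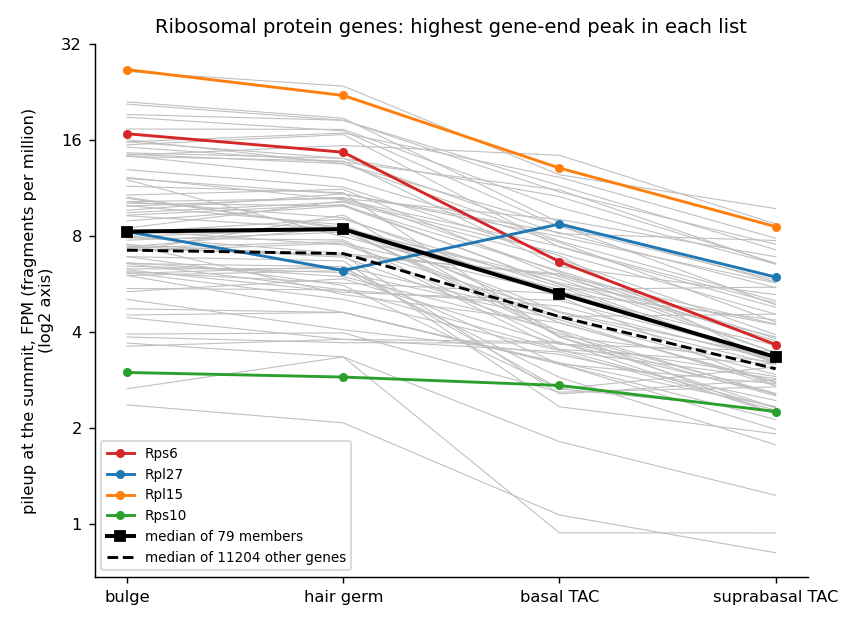
Pileup at the summit of the highest gene-end peak, in FPM on a log2 axis, in the 4 lists from bulge to suprabasal TAC; each grey line is 1 of 79 ribosomal protein genes, 4 of them coloured and named. The black line joins the members' medians (8.27, 8.41, 5.29 and 3.34) and runs nearly parallel to the dashed line of 11204 other genes (7.23, 7.06, 4.48 and 3.07).

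Hair germ and bulge, both from resting follicles, were nearly alike at ribosomal protein genes. The median log2 ratio of hair germ over bulge was −0.07 over 80 members and −0.02 over other genes. None was 1.5-fold or more higher in the hair germ (4.77% of all genes), and 2 of 80 were lower (2.06% of all genes): Rpl32l and Rpl35. Relative to the median of other genes, 0 were higher (5.37% of all genes) and 1, Rpl32l, was lower (1.73%). Rpl35 had 7.96 FPM in the hair germ and 12.0 in the bulge, a log2 ratio of −0.59 (interval −0.95 to −0.24). All 3 stalk genes, which recruit elongation factors to the ribosome, were slightly higher in the hair germ. The largest of these differences was at Rplp0, with 10.3 FPM in the hair germ and 8.48 in the bulge, and its interval reached from −0.06 to 0.62 on the log2 scale.

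Against the hair germ, basal TACs had lower pileup in FPM at almost all members, as at other genes. The median log2 ratio was −0.68 over 79 members and −0.66 over other genes, 47 of 79 members were 1.5-fold or more lower (55.9% of all genes) and 0 were higher (3.16%). Because other genes shifted by −0.66, ratios are also given relative to their median. On that relative scale 3 members were 1.5-fold or more higher in basal TACs (13.5% of all genes) and 6 lower (10.4%). The 3 were Rpl27, Rpl13 and Rpl23, all of the large subunit.

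Rpl27 was the only member with a higher pileup in basal TACs than in every other list. It had 8.73 FPM in basal TACs and 6.24 in the hair germ, with 8.27 in the bulge and 5.96 in suprabasal TACs. Relative to other genes, its log2 ratio of basal TAC over hair germ was 1.14 (interval 0.75 to 1.54), and by fold enrichment it was 0.32, within 1.5-fold. The 6 lower members were Rpl34-ps1, Rps19bp1, Rpl36a, Rpl9, Rpl35a and Rps15a. Rpl36a, on the X chromosome, had 3.86 FPM in basal TACs and 10.9 in the hair germ, a relative log2 ratio of −0.85 (interval −1.22 to −0.47), and of −0.24 by fold enrichment. Rpl9, which shares its peak with Lias, had 2.56 FPM in basal TACs and 6.97 in the hair germ. All 4 X-linked members (Rpl10, Rpl36a, Rpl39 and Rps4x) had relative ratios below 0 here, from −0.02 to −0.85; the median of 354 other X-linked genes was −0.10.

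Suprabasal over basal TACs, both from growing follicles, showed a further common shift. The median log2 ratio was −0.59 over 79 members and −0.55 over other genes, with 40 of 79 members 1.5-fold or more lower (45.4% of all genes) and 0 higher (1.78%). Relative to other genes, 3 members were higher (8.56% of all genes) and 0 were lower (8.22%). The 3 were Rpl7l1, Rpl9 and Rps28, and by fold enrichment all 3 were within 1.5-fold. Rpl9 had 2.84 FPM in suprabasal TACs and 2.56 in basal TACs, a log2 ratio of 0.15 (interval −0.26 to 0.57) before the shift of other genes is taken off. Among the named members, Rpl28, of the large subunit, stood just inside 1.5-fold on the other side, with 3.20 FPM in suprabasal TACs and 6.94 in basal TACs and a relative log2 ratio of −0.58 (interval −0.88 to −0.27).

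Suprabasal TACs stood farthest from the bulge. The median log2 ratio was −1.37 over 79 members and −1.22 over other genes; 73 of 79 members were 1.5-fold or more lower (83.8% of all genes) and 0 higher (2.08%). The suprabasal list held the lowest value of 74 of the 79 members (93.7%, against 87.7% of other genes), and the bulge held the highest value of 51 (64.6%, against 50.8%). Relative to other genes the median was −0.14, with 7 members 1.5-fold or more higher (18.3% of all genes) and 7 lower (11.9%). Both shares, 8.86% each, are below the share of all genes.

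The 7 relatively lower members included Rps6, Rpl36a, Rpl28, Rpl5, Rpl30 and Rps19bp1. Rps6, the target of the S6 kinases downstream of mTOR, had the widest range of the 79 members: 3.66 FPM in suprabasal TACs and 16.7 in the bulge, while hair germ cells had 14.7 and basal TACs 6.65. Its relative log2 ratio of suprabasal TAC over bulge was −0.96 (interval −1.22 to −0.70), but by fold enrichment over local background it was −0.13. Rpl5, which with Rpl11 and the 5S RNA can bind Mdm2, had 2.72 FPM in suprabasal TACs and 10.3 in the bulge, whereas its partner Rpl11 had 3.18 and 5.49. The relative log2 ratios of this pair were −0.68 and 0.45. By fold enrichment both were lower by a like factor: Rpl5 had 9.52 in suprabasal TACs and 15.0 in the bulge, and Rpl11 had 6.62 and 10.5. Of the 7, by fold enrichment Rps19bp1 alone (−0.87) stayed past 1.5-fold, and Rpl30 came to −0.056, while 10 members in all were past it.

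The 7 relatively higher members were Rps10, Rpl13, Rpl27, Rpl23a, Rps28, Rpl41 and Rpl4. The values of Rpl41 and Rpl4 came from peaks away from their listed starts. Rpl41 had no peak within 1 kb of its listed start in any list. At its start, Rpl4 had a log2 ratio of suprabasal TAC over bulge of −0.89, against −1.23 for the medians of other genes, which is within 1.5-fold. Rps10 had the narrowest range of the 79, 1.33-fold (the start peak of Rpl38, outside the 79, ranged 1.26-fold), with 2.99, 2.90, 2.73 and 2.26 FPM from bulge to suprabasal TAC, and Rpl13 had 3.86, 3.71, 3.70 and 2.90. Both rest on low counts: the bulge pileups were 72 and 93 fragments. By fold enrichment over local background, Rps10 was not level, at 12.8, 9.70, 8.38 and 5.99, while Rpl41 was, at 7.09, 7.27, 7.78 and 6.88. Rpl23a had its highest suprabasal peak in another region than in the other lists. By fold enrichment the relative ratios turned below 0 for Rpl23a (−0.90), Rps10 (−0.60), Rps28 (−0.33) and Rpl4 (−0.067), and of the 7 only Rpl13 (0.77) stayed past 1.5-fold. In the region shared by all 4 lists Rpl23a had 3.62 FPM in suprabasal TACs and 6.57 in the bulge.

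**Figure D4:**
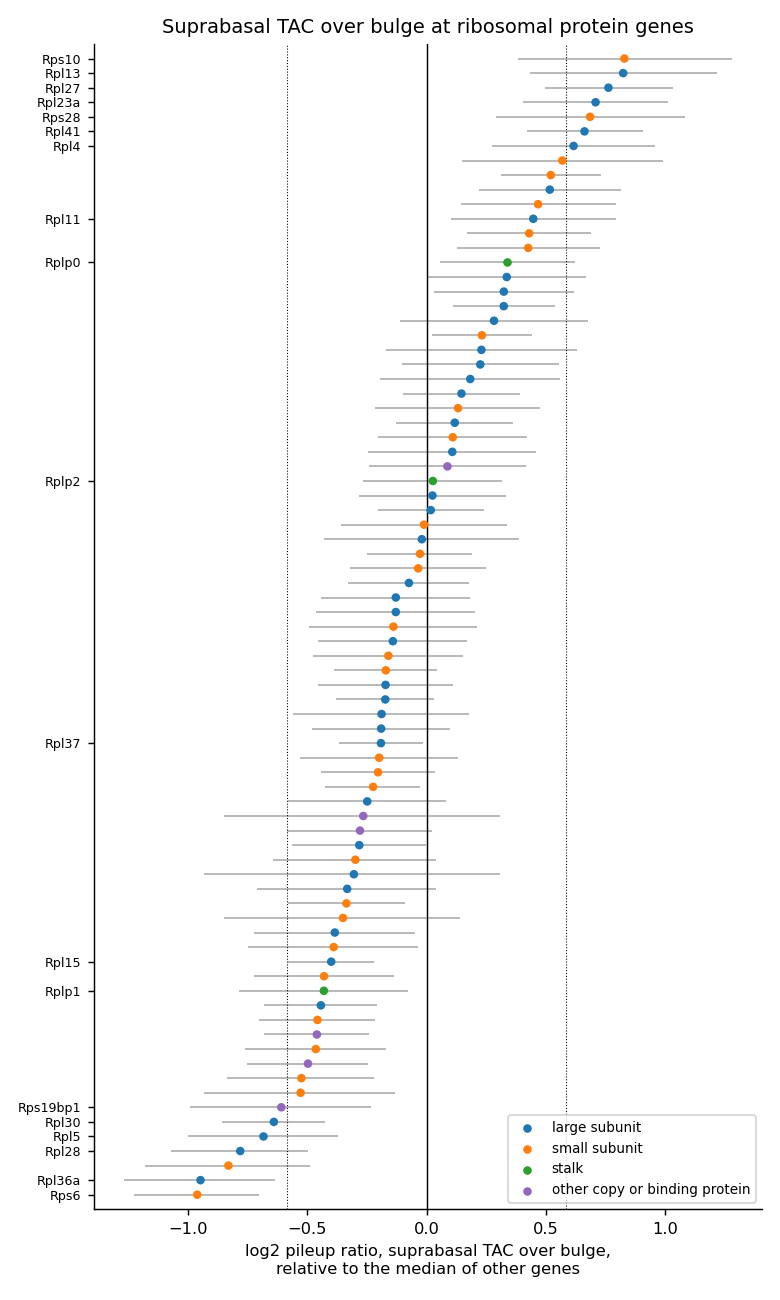
Log2 ratio of the pileup in FPM, suprabasal TAC over bulge, minus the same ratio of the medians of other genes (horizontal axis), for each of 79 ribosomal protein genes (rows), coloured by role, with some of the genes described in the text named; grey lines are 95% counting intervals and dotted lines mark 1.5-fold. Rps10 at 0.83 stands at the top and Rps6 at −0.96 at the bottom, and genes of both subunits stand on both sides of 0.

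Genes of both subunits stood on both sides of the other genes' median. The median log2 ratio of suprabasal TAC over bulge was −1.28 over 40 large subunit genes, −1.40 over 30 small subunit genes and −1.21 over 3 stalk genes, with an SD over genes of 0.426, 0.443 and 0.387. Within the stalk, Rplp0 had a relative log2 ratio of 0.34, Rplp2 of 0.03 and Rplp1 of −0.43. Members that start with C and 4 pyrimidines had a median range over the lists of 1.39 on the log2 scale, against 1.37 for the other members with a listed start. Rps6 and Rps10, whose printed starts both carry that run, were the widest and the narrowest of the 79 members.

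Ratios varied less among ribosomal protein genes than among other genes, but in 3 of 4 comparisons more than among other genes of high pileup. The SD over members of the log2 ratio was 0.215 for hair germ over bulge, 0.399 for basal TAC over hair germ, 0.262 for suprabasal over basal TAC and 0.423 for suprabasal TAC over bulge. Other genes had 0.332, 0.579, 0.506 and 0.703, and the 25% of them with the highest mean pileup had 0.154, 0.338, 0.263 and 0.374. These SDs include counting error, whose part was not tested. The median SD of a ratio from counting alone was 0.182, 0.194, 0.161 and 0.153 over members. It was 0.140, 0.148, 0.126 and 0.118 over the high-pileup 25%. For hair germ over bulge, the 73 usual genes with both peaks had an SD of 0.176, and counting alone gave 0.181. Over the 4 lists the median range was 2.63-fold over members and 2.53-fold over other genes. It was under 2-fold in 17 of 79 members (21.5%, against 22.7% of all genes).

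**Figure D5:**
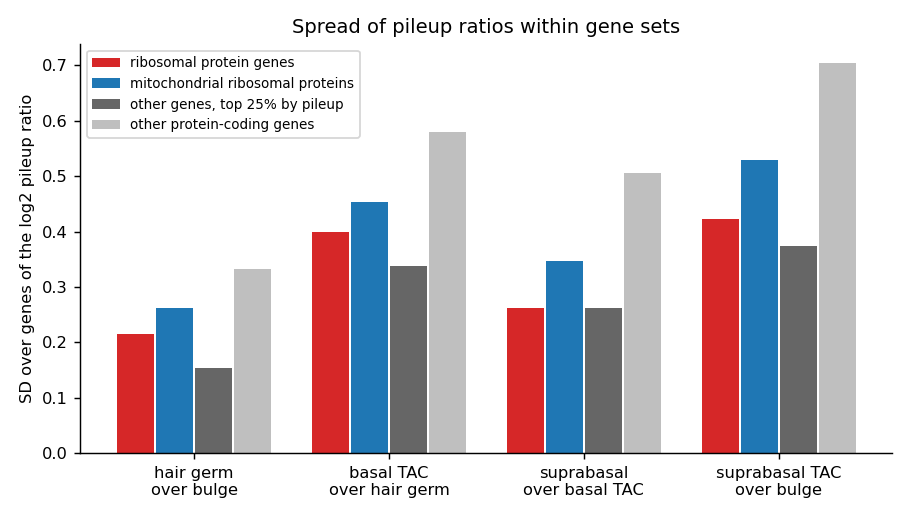
SD over genes of the log2 pileup ratio (vertical axis, from 0) in 4 comparisons, for ribosomal protein genes, mitochondrial ribosomal proteins, the 25% of other genes with the highest mean pileup, and all other protein-coding genes. Ribosomal protein genes stand below all other genes in each comparison and at or above the high-pileup 25%, except by 0.001 in suprabasal over basal TAC (0.262 and 0.263). The SDs include counting error.

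Member peaks were longest in suprabasal TACs. From bulge to suprabasal TAC their median lengths were 1230, 1144.5, 1290 and 1505 bp, while other genes had 1188, 1070, 1159 and 1232 bp. The hair germ peak was longer than the bulge peak at 18 of 80 members (22.5%; 24.5% of all genes), and the basal TAC peak was longer than the hair germ peak at 53 of 79 (67.1%; 64% of all genes). Longer peaks in suprabasal than in basal TACs were seen at 65 of 79 members (82.3%; 63.8% of all genes), and in suprabasal TACs than in the bulge at 63 of 79 (79.7%; 59.1%). In the high-pileup 25% of other genes these shares were 77.6% and 68.0%, and in mitochondrial ribosomal proteins 81.9% and 69.0%. The fragment number of the list is highest in suprabasal TACs and lowest in the hair germ, as are the lengths, and its part was not tested.

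Other genes of translation were open in most lists too, and lower in FPM in suprabasal TACs. Fau and Rack1, which encode ribosomal proteins under other names, had peaks in all 4 lists, and so did 12 of 13 translation factor genes, 15 of 16 ribosome biogenesis genes and 9 of 10 regulator genes (52.2% of all genes). In suprabasal TAC over bulge, 11 of 12 translation factors, 14 of 15 biogenesis genes and 9 of 10 regulators were 1.5-fold or more lower. The share of all genes was 83.8%. Relative to other genes, 2, 1 and 1 of them were lower (11.9% of all genes) and 1, 1 and 2 were higher (18.3%). Eef1a1, the main elongation factor, had 6.12 FPM in suprabasal TACs and 15.4 in the bulge. Larp1, which binds TOP messages, had the lowest ratio of the regulators, with 0.627 FPM in suprabasal TACs and 4.61 in the bulge, a log2 ratio of −2.88. The suprabasal value is low, as the lowest peak of that list has 0.313 FPM. Whether the Larp1 peaks of the 2 lists lie in the same region was not examined. The highest ratio of the regulators was that of Rptor, at −0.56. Myc, which can raise ribosomal protein transcription, had no gene-end peak in basal TACs, against 2.34 FPM in suprabasal TACs, 6.15 in the hair germ and 5.11 in the bulge. That absence does not show a closed gene: as at Rps2, a peak can lie over 1 kb from both span ends. Such peaks were not examined for Myc.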

How the data were processed

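ATAC-seq peak lists of 4 sorted populations were analysed, each called by the authors on 2 pooled samples with MACS 2.1.1.20160309, a q-value cutoff of 0.05, a 10 kb local window and no control, per the file headers. Bowtie2 2.2.9, Picard and mm10 are named in the submitters' processing notes. Whether read ends were shifted for the transposase is not stated there. Each deposited peak has its length, the coverage signal (pileup, whole fragments, not scaled for depth) at its summit, its p-value and q-value as −log10, and a ratio to local background (fold enrichment), as the authors' caller gave them; damaged headings left the −log10 columns to be read by their place.

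Pileup was divided by the header fragment number and multiplied by 1000000 (FPM). Peaks were assigned to gene spans of RefSeq GRCm38.p6 (peaks on Y and the mitochondrial chromosome left out), a ratio needed a peak in both lists, and 1.5-fold was taken as called, with no test, since each population has 1 list. The relative scale divides by the median of 11204 other genes with a peak in all 4 lists. Intervals are exact: conditional binomial for ratios and Clopper-Pearson for shares. Gene IDs were matched to 70 member promoters. Sequences are credited to RefSeq. A search for motifs used plain letters on both strands. The genes, gene lists and comparisons were chosen with earlier results of these data known. Members were named when they lacked a gene-end peak in a list, stood among the 3 highest or lowest ratios of a comparison or the 5 extremes of level or range, lay on X, had several peaks, or stood in a list of well-known members; others are named as members of a count, and a few genes are not reported here. The steps were tested on simulated data. Python 3.11.15, pandas 2.3.3, numpy 2.4.6, scipy 1.17.1 and matplotlib 3.10.9 were used.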

Additional observations from a re-analysis of the deposited data

How the results depend on the processing

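No paired analysis was possible because each list pools both samples, and leaving out a replicate could not be done either. Counts of members with a gene-end peak stayed within 1.5 times under windows of 500 bp or 2 kb, a minimum of 10 for the −log10 q-value, the 5′ start alone and (chosen after seeing the data) any peak touching the span. That limit is wide: members with a peak in all 4 lists (79) numbered 67 at 500 bp and 84 at 2 kb. They numbered 60 at the 5′ start, where only the 70 members with a listed start could count. Median log2 ratios moved with 2 settings. Relative to other genes they were −0.024 for basal TAC over hair germ, −0.044 for suprabasal over basal TAC and −0.14 for suprabasal TAC over bulge. By fold enrichment they were −0.055, −0.44 and −0.60. The count of members 1.5-fold lower in hair germ over bulge (2) was 1 at 2-fold, on the relative scale and by fold enrichment. For basal TAC over hair germ, lower members (47) numbered 16 at 2-fold, 6 on the relative scale and 3 by fold enrichment, and higher members (0) numbered 3 on the relative scale and 1 by fold enrichment. For suprabasal over basal TAC, lower members (40) numbered 1 at 2-fold, 0 on the relative scale and 20 by fold enrichment, and higher members (0) numbered 3 on the relative scale. For suprabasal TAC over bulge, lower members (73) numbered 7 on the relative scale and 42 by fold enrichment, and higher members (0) numbered 7 on the relative scale. The relative counts were themselves recomputed, by settings chosen after seeing the data. In hair germ over bulge the 1 lower member became 0 by fold enrichment and at the 5′ start. In basal TAC over hair germ the 3 higher became 1 by fold enrichment and 5 with peaks summed, and the 6 lower became 2 by fold enrichment. In suprabasal over basal TAC the 3 higher became 0 and the 0 lower became 1 by fold enrichment, and 1 was lower with peaks summed. In suprabasal TAC over bulge the 7 higher became 2 and the 7 lower became 10 by fold enrichment. The SD for basal TAC over hair germ was 0.262 by fold enrichment, and the median range 0.634 on the log2 scale. Relative ratios of suprabasal TAC over bulge changed sign by fold enrichment for Rpl23a (−0.90), Rpl4 (−0.067), Rps10 (−0.60) and Rps28 (−0.33), and with peaks summed for Rps19bp1 (0.019). The cause of these differences was not tested. Fold enrichment adds the local background, and pileup adds the depth of each list; low pileups, as at Rps10, carry wide counting intervals.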

Other observations

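Of the 91 ribosomal protein genes, 30 carry small nucleolar RNA genes, which guide the modification of ribosomal RNA, inside their spans. These host genes had median gene-end pileups of 9.10, 8.78, 5.48 and 3.73 FPM from bulge to suprabasal TAC. The 61 members without such genes had 7.98, 7.87, 4.83 and 3.20. The median range over the lists was 1.38 on the log2 scale for hosts and 1.41 for the others.

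A gene-end peak shared with another protein-coding gene was found at 22 members. Among them were Rpl15 with Nkiras1, Rps25 with Trappc4, Rpl7a with Med22 and Rps28 with Ndufa7. The peak lay within 1 kb of either end of the other gene, which need not be its start. Their medians were 7.83, 7.55, 5.30 and 3.56 FPM, and their openness cannot be told apart from that of the neighbour.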
